A study of Mus musculus with 4 samples.

Results

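Fatty acid synthesis and desaturation were followed through 10 enzyme genes, Acly, Acss2, Me1, Acaca, Fasn, Elovl6, Scd1, Scd2, Fads1 and Fads2, chosen by name for their place in the pathway. All 10 were among the 24015 genes of the count files, and all 10 were among the 14259 genes that passed the filter on low counts. The samples were embryoid bodies, clusters of mouse embryonic stem cells left to differentiate in suspension. The study compared the RNA of 2 Control and 2 Trim33-deficient libraries. Trim33 codes for a ubiquitin ligase that binds chromatin and works with SMAD proteins.

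One protocol is given for both groups. Stem cell lines of an outbred strain came from embryos with 2 floxed Trim33 alleles and the UbcCreERT2 transgene, and were kept feeder-free in LIF and 2i, at passages 8 to 10. UbcCreERT2 is a Cre recombinase that tamoxifen activates, under the broadly active ubiquitin C promoter, so deletion is not limited to one cell type. Deficiency was brought about by 4OH-Tamoxifen on day 4, and bodies were taken on day 7. The Control genotype is labelled wild type, and the labels leave unsaid whether Controls carried the floxed alleles and Cre or were given 4OH-Tamoxifen. They mention independent pairs but not the number of lines. The tests were unpaired unless a replicate block is named, and pair differences and that block take same-numbered replicates as pairs.

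Fatty acids are built from acetyl-CoA. ATP citrate lyase (Acly) and acetyl-CoA synthetase (Acss2) supply it, malic enzyme (Me1) supplies NADPH, acetyl-CoA carboxylase (Acaca) makes malonyl-CoA, and fatty acid synthase (Fasn) joins these units into palmitate. Elovl6 lengthens palmitate to stearate, the stearoyl-CoA desaturases Scd1 and Scd2 place the first double bond, and Fads1 and Fads2 desaturate polyunsaturated fatty acids. Transcription of these genes is classically driven by SREBP-1, encoded by Srebf1, whereas SREBP-2 is best known for the sterol pathway.

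Counts in genes ranged from 10422738 to 13808837 per library. Control replicate 1 was the least like the rest, with Pearson correlations across genes of 0.932 to 0.952, while the remaining 3 libraries correlated at 0.967 to 0.978 with each other. Genes are not independent replicates. The targeted gene Trim33 was at 93.0 and 109 CPM among Controls, with 43.8 and 42.3 CPM in the Trim33-deficient pair, a log2 fold change of −1.23 (SE 0.13), with an edgeR quasi-likelihood adjusted p of 0.219 and a DESeq2 adjusted p of 1.78e-06. CPM here are counts per 1e6 after TMM scaling, and mRNA lacking only the floxed exons can still be counted. Markers of tissues that such bodies form were present: all 20 visceral endoderm, 11 neural and glial and 9 mesenchymal markers and 8 of 9 cardiac markers passed the filter. In mixed tissue, fewer cells of a type and less RNA per cell cannot be told apart.

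Promoter windows are shown for Fasn and Acly, from the early part of the pathway, and for Fads2, a desaturase gene. Of the 10 genes, 7 had entries among the RefSeq promoters (GRCm38.p6), with 8 windows in all because Me1 has 2. Each window runs from 250 bases before to 50 bases after the annotated start, 5′ to 3′ on the gene's strand. Capitals mark CCAAT on either strand, the box bound by NF-Y, which works beside SREBP proteins at many of their targets.
Fasn, chr11:120824498-120824797, minus strand: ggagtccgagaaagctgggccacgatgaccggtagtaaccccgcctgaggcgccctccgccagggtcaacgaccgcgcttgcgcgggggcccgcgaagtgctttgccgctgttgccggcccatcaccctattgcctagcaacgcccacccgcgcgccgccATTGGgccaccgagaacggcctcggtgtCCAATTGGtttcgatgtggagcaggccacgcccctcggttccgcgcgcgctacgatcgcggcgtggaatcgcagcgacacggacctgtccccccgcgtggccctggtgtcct
Acly, chr11:100527951-100528250, minus strand: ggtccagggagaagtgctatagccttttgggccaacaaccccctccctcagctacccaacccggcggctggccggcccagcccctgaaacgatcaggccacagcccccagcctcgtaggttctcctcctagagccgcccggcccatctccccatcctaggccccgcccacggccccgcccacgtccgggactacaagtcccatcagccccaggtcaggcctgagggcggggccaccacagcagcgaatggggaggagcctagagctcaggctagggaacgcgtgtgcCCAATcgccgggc
Fads2, chr19:10101454-10101753, minus strand: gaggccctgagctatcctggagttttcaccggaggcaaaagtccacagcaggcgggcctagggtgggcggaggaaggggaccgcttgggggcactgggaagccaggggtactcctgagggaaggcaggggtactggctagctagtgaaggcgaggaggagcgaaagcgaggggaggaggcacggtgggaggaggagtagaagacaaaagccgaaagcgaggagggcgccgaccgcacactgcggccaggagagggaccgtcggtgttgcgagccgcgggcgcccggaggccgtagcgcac

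The Fasn window holds 3 CCAAT matches, which begin 90, 62 and 59 bases before the start, and the last 2 overlap. The Acly window holds 1, which begins 37 bases after the start, and the Fads2 window holds 0. CCAAT was found in 4 of the 8 windows and in 37.4% of all 32851 RefSeq promoter windows. The GC box letters GGGCGG, also searched on both strands, were in 4 of the 8 windows and in 35.7% of all windows. The sterol response element letters TCACNCCAC were in 0 of the 8 and in 1.24% of all, and the E-box CACGTG in 0 of the 8 and in 7.15% of all, on either strand. These matches only describe the letters in these windows.

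The 4 desaturase genes were higher in Trim33-deficient bodies, by 1.53 to 1.98 times, the elongase gene Elovl6 had a fold change of 1.47, close to that of Fads1, and the 5 genes up to palmitate had fold changes from 0.819 to 1.34. This split by step was made with the values known, and no difference between the steps was tested. The edgeR quasi-likelihood test called 0 of the 10 genes at an adjusted p under 0.05, and 0.014% of all tested genes, 2 in number and both lower. At an unadjusted p under 0.05, edgeR had 4 of the 10 higher and 0 lower, where 3.06% of all genes were higher and 4.78% lower (7.84% together). DESeq2 found that 2 of the 10 rose, Scd1 and Scd2, where it called 0.182% of all genes higher and 0.989% in either direction, and it called neither Fads1 nor Fads2. The likelihood ratio test of edgeR called Scd1 alone, and 0.203% of all genes higher. No label states that the libraries came from separate lines, and the p-values cover only how these libraries spread. Whether that spread lies between lines, between cultures or in technical handling was not tested.

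**Figure D1:**
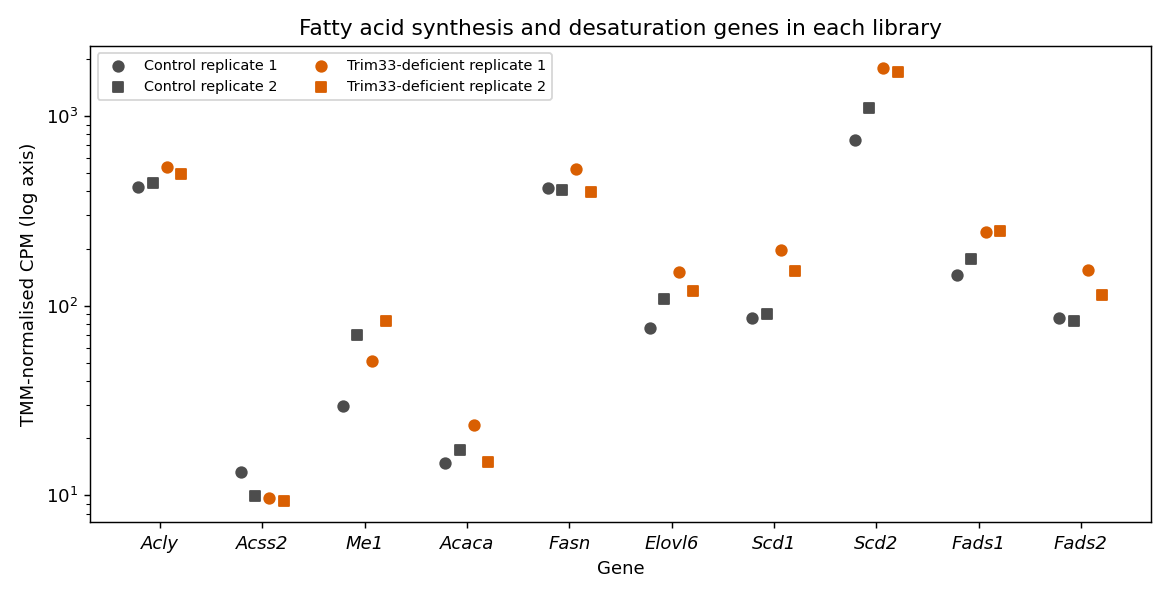
TMM-normalised CPM (log axis) of the 10 genes, 1 point per library, for Control (grey) and Trim33-deficient (orange) replicates 1 (circles) and 2 (squares). Both orange points lie above both grey points for Acly, Elovl6, Scd1, Scd2, Fads1 and Fads2, and below them for Acss2.

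Acly, which splits citrate into cytosolic acetyl-CoA, was at 420.4 and 445 CPM in the Controls, then 537 and 497 CPM once Trim33 was deficient. The groups did not overlap, and their means stood at a ratio of 1.20. Its log2 fold change was 0.26 (SE 0.12, 95% interval −0.046 to 0.56), with an edgeR adjusted p of 0.663. It stayed between 0.21 and 0.31 whichever library edgeR left out, the narrowest such range of the 10 genes.

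Acss2, which makes acetyl-CoA from acetate, was the one gene with a value below 0. Its level was 13.4 and 9.96 CPM among Controls, with 9.74 and 9.39 CPM in the Trim33-deficient pair, from 102 to 173 counts per library. Control replicate 1 was high and the other 3 libraries were close together. The log2 fold change was −0.29 (SE 0.26, 95% interval −0.97 to 0.40), with an edgeR adjusted p of 0.777, and it was −0.063 when Control replicate 1 was left out. On the opposite strand, Acss2os, Ggt7 and Gss each overlap 1.94% to 3.89% of the Acss2 exon bases in GENCODE M21. No source used here gives the strand setting of the counting.

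Me1, the cytosolic malic enzyme, had 29.6 and 70.3 CPM in the Controls, then 51.2 and 82.8 CPM once Trim33 was deficient. Replicate 2 was above replicate 1 in both groups, and the groups overlapped. Within the pairs the log2 difference was 0.79 and 0.24. On the log2 scale the fold change was 0.43 (SE 0.47, 95% interval −0.82 to 1.67), with an edgeR adjusted p of 0.811. It turned to −0.076 with Control replicate 1 left out and was 1.18 with Control replicate 2 left out.

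Acaca makes the malonyl-CoA that Fasn uses. It was sparsely counted, with 191 and 178 counts in the Controls beside 325 and 175, or 14.8 and 17.4 CPM among Controls, with 23.4 and 14.9 CPM in the Trim33-deficient pair. The groups overlapped, and Trim33-deficient replicate 1 alone was high. The log2 fold change was 0.26 (SE 0.29, 95% interval −0.50 to 1.01), with an edgeR adjusted p of 0.811, and −0.10 with that library left out. Hmgcs1, a sterol pathway gene in wide use, is listed at 0 in all 4 libraries, and whether the counting missed reads of Acaca was not tested. Acacb, the mitochondrial carboxylase, was at 5.95 and 6.05 CPM in the Controls, then 3.68 and 4.44 CPM once Trim33 was deficient, a log2 fold change of −0.56 (SE 0.30) with an edgeR adjusted p of 0.678.

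Fasn, which assembles palmitate, showed 416 and 409 CPM among Controls, with 523 and 398 CPM in the Trim33-deficient pair. The Trim33-deficient libraries lay on either side of the Controls, which were nearly equal. This gave a log2 fold change of 0.16 (SE 0.17, 95% interval −0.28 to 0.60), with an edgeR adjusted p of 0.804. With Trim33-deficient replicate 1 left out the sign turned, to −0.047.

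Elovl6, the elongase that turns palmitate into stearate, was at 76.7 and 108 CPM in the Controls, then 151 and 120.1 CPM once Trim33 was deficient. The groups did not overlap, but Control replicate 2 was close to Trim33-deficient replicate 2. The pairs differed by 0.98 and 0.15 on the log2 scale. On the log2 scale the fold change was 0.55 (SE 0.22, 95% interval −0.025 to 1.13), with an edgeR adjusted p of 0.647. It was 0.32 when Control replicate 1 was dropped and 0.83 when Control replicate 2 was.

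Scd1 and Scd2, the delta-9 desaturases that make oleate and palmitoleate, had the largest fold changes of the 10. Scd1 was at 85.7 and 90.3 CPM among Controls, with 197 and 152 CPM in the Trim33-deficient pair. The Controls were close together, and both Trim33-deficient libraries lay above them. Its log2 fold change was 0.99 (SE 0.16, 95% interval 0.57 to 1.41), with an edgeR adjusted p of 0.358 and a DESeq2 adjusted p of 0.000981. The pairs differed by 1.20 and 0.75.

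Scd2, a desaturase prominent in embryonic and neural tissue, was the most counted gene of the set. It was at 743 and 1104 CPM in the Controls, then 1798 and 1705 CPM once Trim33 was deficient. Control replicate 1 was the lowest, and the Trim33-deficient libraries were closer to each other than the Controls were. The log2 fold change was 0.92 (SE 0.23, 95% interval 0.32 to 1.53), with an edgeR adjusted p of 0.544 and a DESeq2 adjusted p of 0.0155. It was 0.66 and 1.24 when Control replicates 1 and 2 were dropped in turn.

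The DESeq2 calls of both genes were lost in most fits with 1 library fewer, while the fold changes stayed above 0. When Control replicate 1, Trim33-deficient replicate 1 or Trim33-deficient replicate 2 was dropped, the DESeq2 adjusted p was 0.124, 0.99995 and 0.109 for Scd1. The log2 fold changes of Scd1 were then 0.95, 0.80 and 1.16. For Scd2 the DESeq2 adjusted p was 0.381, 0.805 and 0.895, at log2 fold changes of 0.66, 0.90 and 0.96. With Control replicate 2 dropped it was 0.00753 for Scd1 and 6.24e-06 for Scd2, and DESeq2 also called Fads1 (0.0396) and Me1 (0.0273), 4 of the 10, where it called 2.77% of all genes higher. With a replicate block DESeq2 called Scd1 and Scd2, and 0.566% of all genes higher. A fit without 1 library assumes that the lone library left in its group varies as the other group does. Among the 84 genes of the authors' deposited table are Scd1, with a log2 fold change of 0.997 (DESeq adjusted p = 0.0125), and Scd2, with 0.93 (DESeq adjusted p = 0.000841). The other 8 genes are not in the authors' deposited table. It holds 84 genes, 14 above 0 and 70 below, where the count files hold 24015. Among them are also 2 sterol synthesis genes, Cyp51 at 0.89 (DESeq adjusted p = 0.00591) and Sqle at 0.84 (DESeq adjusted p = 0.0220).

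The count ratio of Scd2 to Scd1 was 8.67 and 12.2 in the Controls against 9.12 and 11.2, so the groups overlapped. Both genes lie on chromosome 19, with Scd4 the one coding gene between them in the RefSeq order. They share 145 identical 50-base windows, 3.03% of those of the longest Scd1 transcript and 2.68% of those of Scd2, where short reads fit both genes. Scd3 had 2, 1, 5 and 0 counts in the 4 libraries, Controls first, and Scd4 had 2, 9, 1 and 1.

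Fads1 and Fads2 are the delta-5 and delta-6 desaturases. Fads1 was at 145 and 177 CPM among Controls, with 243 and 248 CPM in the Trim33-deficient pair. The Trim33-deficient values were nearly equal and above both Controls. The log2 fold change was 0.61 (SE 0.14, 95% interval 0.25 to 0.97), with an edgeR adjusted p of 0.523 and a DESeq2 adjusted p of 0.0906.

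Fads2 was at 86.2 and 83.5 CPM in the Controls, then 154 and 114 CPM once Trim33 was deficient. The Controls were close together, and Trim33-deficient replicate 1 was the highest. This gave a log2 fold change of 0.66 (SE 0.17, 95% interval 0.20 to 1.11), with an edgeR adjusted p of 0.548 and a DESeq2 adjusted p of 0.209. Fads1 and Fads2 are neighbours on chromosome 19, with 0 coding genes between them. The log2 count ratio of Fads2 to Fads1 was −0.75 and −1.08 in the Controls against −0.66 and −1.12, lower in replicate 2 of both groups.

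**Figure D2:**
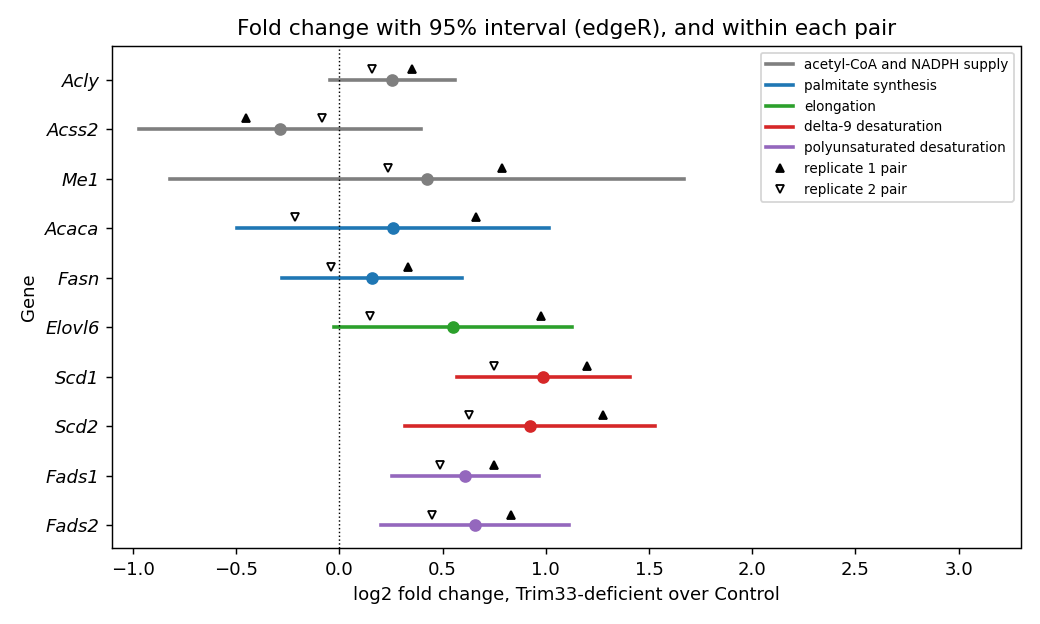
Log2 fold change of each gene, Trim33-deficient over Control (coloured points), with its 95% interval from the edgeR fit (bars, coloured by step of the pathway) and the log2 difference within the replicate 1 and replicate 2 pairs (triangles). The intervals of Scd1, Scd2, Fads1 and Fads2 lie above 0 before any adjustment for the number of genes tested, and those of the other 6 genes include 0.

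Per kilobase of the longest coding transcript, Scd2 was the highest in Control bodies at 169 ± 46.9 CPM, followed by Acly at 97.8 ± 3.94 (SD, n = 2 for each level given per kilobase). Fads1 at 46.5 ± 6.58 and Fasn at 41.0 ± 0.505 CPM per kilobase did not differ beyond their spread, and Fads2 followed at 26.9 ± 0.615. Scd1 at 18.2 ± 0.678, Elovl6 at 15.6 ± 3.78 and Me1 at 15.2 ± 8.75 also lay within their spread. Acss2 at 3.98 ± 0.822 and Acaca at 1.69 ± 0.195 CPM per kilobase were the lowest. In Trim33-deficient bodies Scd2 was at 321 ± 12.1 and Scd1 at 36.1 ± 6.62, beside Fasn at 45.8 ± 8.83 CPM per kilobase.

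Summed over the 10 genes, the level was 2030.0 and 2515 CPM in Controls against 3687 and 3341 in Trim33-deficient bodies, 54.6% higher on average. Scd2 made up 36.6% and 43.9% of that sum in the Controls against 48.8% and 51.0%. Fasn made up 20.5% and 16.3% against 14.2% and 11.9%. Leaving Scd2 aside, the Trim33-deficient sum was still 30.7% higher on average.

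Ratios within a library do not depend on scaling between libraries. The log2 count ratio of Scd1 to Fasn was −2.28 and −2.18 in the Controls against −1.41 and −1.39, and that of Fads2 to Fasn −2.27 and −2.29 against −1.77 and −1.80. In both, the gap between the nearest libraries of the groups exceeded the spread within either group. For Scd2 to Fasn it was 0.84 and 1.43 against 1.78 and 2.10, and for Fads1 to Fasn −1.52 and −1.21 against −1.11 and −0.68, where that gap was smaller than the spread of the Controls. The groups overlapped for Acly to Fasn, with 0.015 and 0.12 against 0.038 and 0.32. With 2 libraries a group an exact two-sided permutation test cannot go below p = 0.333, and no test of the ratios was run.

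**Figure D3:**
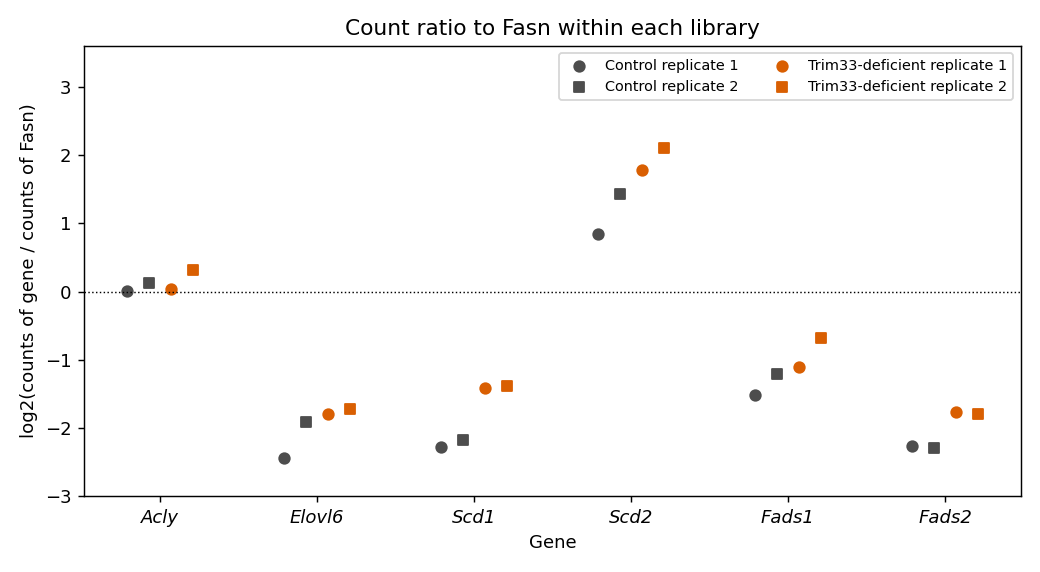
Log2 ratio of the counts of 6 genes to those of Fasn within each library, for Control (grey) and Trim33-deficient (orange) replicates 1 (circles) and 2 (squares). For Scd1 and Fads2 the 2 points of a group sit together and the group means differ by 0.83 and 0.50, whereas for Acly the groups overlap.

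As a set, 9 of the 10 genes had a log2 fold change above 0, as did 49.8% of all tested genes, and their median was 0.49 beside −0.0014 over all tested genes. Both Trim33-deficient libraries lay above both Controls for 6 of the 10 (19.3% of all genes) and below them for 1 (21.4%). Within both pairs 7 were higher (30.3% of all genes) and 1 lower (29.8%). The median moved to 0.26 when Control replicate 1 was dropped, and it was 0.77 within the replicate 1 pair and 0.20 within the replicate 2 pair. By step, the 4 desaturases had a median of 0.79. The 5 genes up to palmitate had one of 0.26. Within the replicate 1 and replicate 2 pairs the median was 1.02 and 0.56 for the desaturases. For the genes up to palmitate it was 0.35 and −0.040.

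Of 20 sterol synthesis genes 19 were tested, all above 0, from 0.095 to 0.99 with a median of 0.58. That median was 0.44 without Control replicate 1, and 0.80 and 0.42 within the replicate 1 and replicate 2 pairs. Both Trim33-deficient libraries lay above both Controls for 18 of the 19 (19.3% of all genes), beside 6 of the 10 fatty acid genes. The difference between the lists was not tested. edgeR called 0 of the 19 sterol genes, with 14 higher at an unadjusted p under 0.05 (3.06% of all genes). DESeq2 called 4 higher (0.182% of all genes). The largest log2 fold changes were those of Hsd17b7 at 0.99 (SE 0.21) and Cyp51 at 0.88 (SE 0.19). Sqle (squalene epoxidase) was at 0.83 (SE 0.13), the prenyl synthase gene Fdps at 0.80 (SE 0.15) and the sterol oxidase gene Msmo1 at 0.72 (SE 0.14), with edgeR adjusted p from 0.326 to 0.485. DESeq2 called Sqle (adjusted p = 0.00123, and 0.0134 with the replicate block) and Msmo1 (0.0413, and 0.119 with the block). Of the DESeq2 fits with 1 library left out, the one without Control replicate 2 called both, and the other 3 called neither, at log2 fold changes of 0.72 to 0.90 for Sqle and 0.57 to 0.74 for Msmo1. Scd1 and Scd2 thus lay in the upper part of the sterol range, and Acly and Fasn in the lower part.

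**Figure D4:**
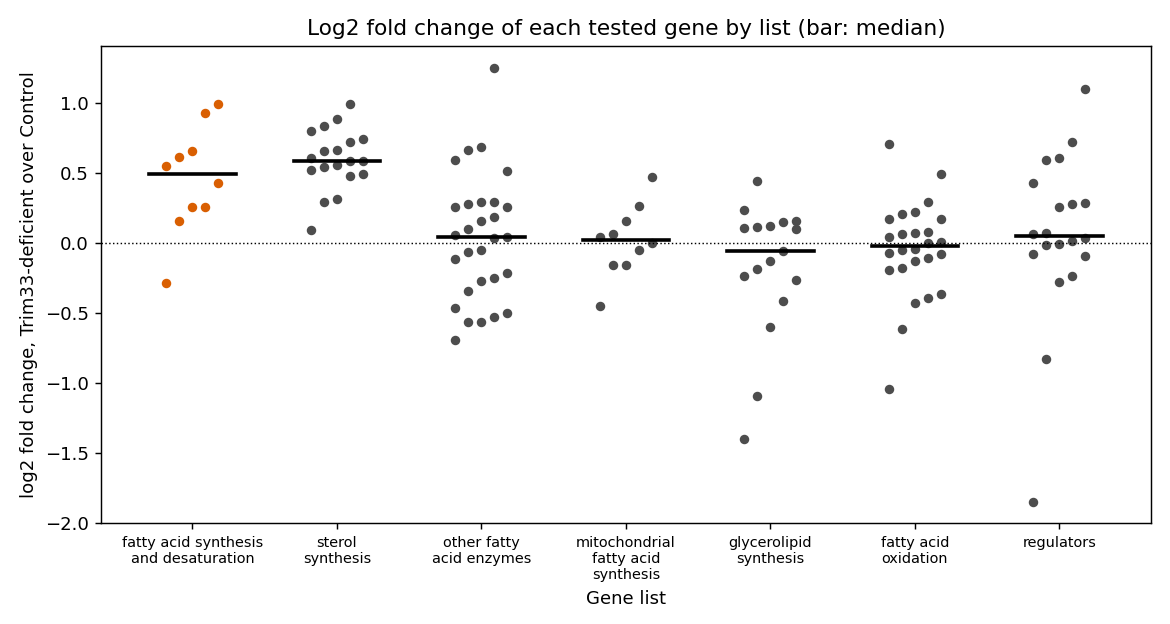
Log2 fold change, Trim33-deficient over Control, of each tested gene (points) in 7 lists of lipid genes, with the list's median (bar). The fatty acid synthesis and desaturation genes (orange, median 0.49) spread from −0.29 to 0.99, the sterol synthesis genes lie above 0 (median 0.58), and the medians of the other 5 lists lie between −0.057 and 0.049.

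Other enzymes of fatty acid metabolism were divided. Of 29 tested of 35, 16 were above 0 and 13 below, with a median of 0.043. edgeR called 0, with 2 higher (3.06% of all genes) and 1 lower (4.78%) at an unadjusted p under 0.05. DESeq2 called 1, which was higher (0.182% of all genes). That was Idh1, a source of cytosolic NADPH, at 88.2 and 97.6 CPM among Controls, with 155 and 143 CPM in the Trim33-deficient pair, with a log2 fold change of 0.68 (SE 0.12), an edgeR adjusted p of 0.395 and a DESeq2 adjusted p of 0.0176. DESeq2 made no call of Idh1 when any 1 library was left out or with the replicate block, at log2 fold changes of 0.61 to 0.77 and of 0.69. Fads3, a relative of Fads1 and Fads2, was at 9.43 and 15.5 CPM in the Controls, then 20.8 and 38.4 CPM once Trim33 was deficient, a log2 fold change of 1.25 (SE 0.41) with an edgeR adjusted p of 0.608. It was 0.75 with Trim33-deficient replicate 2 left out and 1.65 with Control replicate 2 left out, where DESeq2 called it (adjusted p = 0.0134). Me2, a mitochondrial malic enzyme, was at −0.53 (SE 0.15) with an edgeR adjusted p of 0.548.

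Mitochondrial fatty acid synthesis, a separate pathway that leads to lipoic acid, had 5 of 10 tested genes above 0 and a median of 0.018. edgeR and DESeq2 called 0, and 0 had an unadjusted p under 0.05 with edgeR (7.84% of all genes). The malonyl transferase gene Mcat was at 0.26 (SE 0.13), the ketoacyl synthase gene Oxsm at −0.45 (SE 0.24) and Aasdhppt, whose product arms the acyl carrier protein, at −0.16 (SE 0.13), with edgeR adjusted p from 0.664 to 0.757.

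Of 17 tested genes of glycerolipid synthesis and storage, 8 were above 0 and 9 below, with a median of −0.057. edgeR and DESeq2 called 0, with 1 higher (3.06% of all genes) and 3 lower (4.78%) at an unadjusted p under 0.05. Dgat2, which makes triglyceride, was at 42.8 and 25.1 CPM among Controls, with 16.1 and 9.57 CPM in the Trim33-deficient pair, a log2 fold change of −1.40 (SE 0.39) with an edgeR adjusted p of 0.549 and a DESeq2 adjusted p of 0.0998. Within the pairs Dgat2 differed by −1.40 and −1.38, and DESeq2 called it with the replicate block (adjusted p = 0.0238) and with Control replicate 2 left out (0.00434). The acyltransferase genes Gpam and Mogat2 were at −0.41 (SE 0.13) and −0.60 (SE 0.21), with edgeR adjusted p of 0.602 and 0.626.

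Fatty acid oxidation, the opposite pathway, had 13 of 26 tested genes above 0 and a median of −0.020. edgeR and DESeq2 called 0, with 0 higher (3.06% of all genes) and 3 lower (4.78%) at an unadjusted p under 0.05. These were Cpt1c and Cpt2, of the carnitine palmitoyltransferase family, at −0.43 (SE 0.13) and −0.40 (SE 0.14), and the thiolase gene Acaa2 at −0.36 (SE 0.13). Their edgeR adjusted p ran from 0.597 to 0.627.

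Among 20 regulators of lipogenesis, activators and inhibitors together, 12 were above 0 and 8 below, with a median of 0.049. The signs and the median of this mixed list give no direction for lipogenesis. edgeR and DESeq2 called 0, with 4 higher (3.06% of all genes) and 1 lower (4.78%) at an unadjusted p under 0.05. Srebf2 was at 372 and 429 CPM in the Controls, then 530.2 and 548 CPM once Trim33 was deficient, a log2 fold change of 0.43 (SE 0.13) with an edgeR adjusted p of 0.581. Srebf1 was at 111 and 105 CPM among Controls, with 127 and 135 CPM in the Trim33-deficient pair, a log2 fold change of 0.27 (SE 0.10) with an edgeR adjusted p of 0.637. Both Trim33-deficient libraries lay above both Controls for either gene, as they did for 19.3% of all genes. The counts cover all isoforms.

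Insig1, which holds SREBP precursors in the endoplasmic reticulum and is itself a target, was at 81.6 and 81.8 CPM in the Controls, then 131 and 117 CPM once Trim33 was deficient, a log2 fold change of 0.60 (SE 0.11) with an edgeR adjusted p of 0.483. Scap, the SREBP escort, was at 0.014 (SE 0.16), and its sign turned with upper quartile scaling and with library size only. Trib3, a pseudokinase gene, was at 0.59 (SE 0.19) with an edgeR adjusted p of 0.602. Mlxipl, which encodes the carbohydrate-sensing factor ChREBP, had 38 and 19 counts in the Controls beside 10 and 7, a log2 fold change of −1.85 (SE 0.51) with an edgeR adjusted p of 0.548. Nr1h3, the gene of the oxysterol receptor LXR alpha, had 9 and 6 counts beside 23 and 13, a log2 fold change of 1.10 (SE 0.53) with an edgeR adjusted p of 0.664.

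Summed markers of cell types in the bodies differed between libraries too, and their part in the lipogenic values was not tested. Visceral endoderm markers summed to 1776 and 2334 CPM in Controls against 679 and 797 CPM in Trim33-deficient bodies, the order kept in the sums that follow, with 18 of 20 below 0, among them Apoc2 and Cubn, the genes that edgeR called. When Trim33-deficient replicate 1 or 2 was left out edgeR called neither, while DESeq2 still called both, and Apoc2 stayed between −6.13 and −6.11 and Cubn between −4.87 and −4.64 over all left-out libraries. DESeq2 called 15 of the 20 visceral endoderm markers lower, beside 115 of all 14259 tested genes. Mesenchymal and smooth muscle markers summed to 1065 and 5770.2 CPM in Controls against 3690.2 and 9776, with 9 of 9 above 0. Neural and glial markers summed to 969 and 429 CPM in Controls against 508 and 434, with 0 of 11 above 0. In that sum Control replicate 1 alone was high, and the median log2 fold change moved from −0.79 to −0.24 without it. Cardiac markers summed to 184 and 446 CPM in Controls against 1442 and 302, with Trim33-deficient replicate 1 alone high. Pluripotency markers summed to 318 and 213 CPM in Controls against 136 and 194, and hypoxia and glycolysis genes to 8596 and 8733 CPM in Controls against 4488 and 4483. Adipocyte markers summed to 45.4 and 27.9 CPM in Controls against 24.4 and 35.7. Of these 9 adipocyte markers, 4 passed the filter, and the defining genes Adipoq, Plin1 and Lep had 0 counts in all 4 libraries.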

How the data were processed

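RNA was extracted in total from day 7 bodies and made into Illumina libraries, per the labels' protocols. STAR, HTSeq, DESeq and mm9 are named, without version or role, in the submitters' processing notes. Each library's deposited file gives unnormalised counts by gene symbol. Reads in no feature (55.5% to 56.0% of a file) and ambiguous reads (0.172% to 0.200%) were kept out of library sizes. The authors' deposited table holds per the file headers, a mean normalised signal, a fold ratio with its log2, and each p-value raw and adjusted. It names its groups only A and B, and its direction was set from the data: for 83 of 83 genes with finite values the sign was that of Trim33-deficient over Control here.

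Genes were filtered with filterByExpr, scaled by TMM and tested by edgeR 4.0.16 in R 4.3.3 (quasi-likelihood, two-sided, Benjamini-Hochberg over 14259 genes, threshold 0.05), with no replicate block. A standard error is the absolute log2 fold change over the square root of F, and 95% intervals use the fit's degrees of freedom. Pair differences are of log2 CPM with a prior count of 2. As alternatives served DESeq2 1.42.0, the likelihood ratio test of edgeR, voom of limma 3.58.1, other scalings and filters, the block, and dropping each library. Lengths, shared windows and exon overlaps came from GENCODE M21 (GRCm38), and no coordinates were moved between builds. The test scripts were tested on simulated data.

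The labels speak of pairs. Deviations of same-numbered libraries from their group means correlated across genes at Pearson 0.236 and Spearman 0.207. With 2 libraries a group, swapping the numbers within 1 group only turns the sign of these values, so they cannot show pairing. Replicates were not 1 library deposited in duplicate, as chi-square per degree of freedom was 35.7 between Controls and 24.3 between Trim33-deficient libraries. The 10 genes, the lists and the rule for named genes were chosen with earlier results of these data known. The rule names the 10 genes, their relatives, the main regulators and, per list, called genes and those of smallest p with a mean of at least 2 CPM. Not every gene it names is given.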

Additional observations from a re-analysis of the deposited data

How the results depend on the processing

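Of 190 log2 fold changes of the 10 genes under 19 alternatives, 175 kept their direction and their side of the threshold. The quasi-likelihood test of edgeR called 0 of the 10 in each of its fits, and limma voom called 0. DESeq2 called 2, the likelihood ratio test 1, and, in fits added after the data were seen, DESeq2 called 2 with the replicate block, 4 without Control replicate 2 and 0 without any other library. Without Trim33-deficient replicate 1, Acaca turned to −0.099 (DESeq2 −0.090) and Fasn to −0.047 (DESeq2 −0.039). Without Control replicate 1, Me1 turned to −0.076 (DESeq2 −0.072). Left-out libraries moved Acaca from −0.099 to 0.55, Fasn from −0.047 to 0.35, Me1 from −0.076 to 1.18 and Scap from −0.16 to 0.21. Scap was at −0.15 with DESeq2 without Control replicate 2, −0.023 with upper quartile scaling and −0.032 with library size only. The median of the 10 genes lay between 0.26 and 0.70 over the left-out libraries. The cause was not tested.

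Over all genes, the 2 calls of edgeR became 141 with DESeq2, 169 with the likelihood ratio test, 0 with limma voom, 14 with no low-count filter and 1 with a minimum of 1 CPM in all libraries. Left-out libraries gave 0 to 91 calls with edgeR, and DESeq2 gave 85 and 676 without Control replicate 1 or 2, and 54 and 48 without Trim33-deficient replicate 1 or 2. With the replicate block edgeR called 2 genes, 0 of them among the 10, and DESeq2 called 187. With 2 libraries a group, intervals are wide, and a fold change that missed the threshold is not shown to be absent.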
